A study of Mus musculus with 8 samples.

Results

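Kinesin-1 was followed through the 5 genes whose names the arrays give as Kif5a, Kif5b, Kif5c, Klc1 and Klc2. All probes carrying those names were taken, which gave 8 of the 55583 probes with a value on every array: 2 each for Kif5a, Kif5b and Klc1, and 1 each for Kif5c and Klc2. Kif5b had been chosen by its signal in these arrays, which differed between the genotypes at both days, so that difference is described here without a test. The other members were chosen as its relatives.

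RNA came from mouse embryonic stem cell cultures of 2 genotypes, either heterozygous for the R141C mutation of Nkx2-5, a homeobox transcription factor of the early heart, or wild type. The groups were R141C at day 6 of differentiation, wild type at day 6, R141C at day 0 and wild type at day 0, with 2 biological replicates and 1 single-colour Agilent array each. Cells at day 6 had passed through embryoid bodies, made in hanging drops without the self-renewal cytokine LIF, grown in suspension and then plated on gelatin for the last 24 hours. The labels name a single heterozygous genotype and do not say how many clones stand behind it, so clone and genotype cannot be told apart. Day 6 arrays filled one column of the single slide and day 0 arrays the other, with R141C below wild type, so slide position and group cannot be told apart either.

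Kinesin-1 is the motor that carries organelles, vesicles and RNA granules along microtubules away from the cell centre. It is a tetramer of a pair of heavy chains, which hold the motor domain and are encoded by Kif5a, Kif5b and Kif5c, and a pair of light chains, which bind cargo and are encoded by the Klc genes. Kif5b is the broadly expressed heavy chain, while Kif5a and Kif5c are known chiefly from neurons.

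Each probe holds 60 bases and is labelled with 1 transcript. Variant names below are those labels, and whether a probe also matches other variants of its gene was not analysed here. The last 30 bases of the 6 probes for the relatives of Kif5b are shown because they tell the paired Kif5a and Klc1 probes apart, of which the Kif5a pair differed in its calls below. Capitals mark the hexamer AATAAA, the common polyadenylation signal, searched on the printed strand only. It was found in 10.1% of all 55583 probes of 60 bases.
Kif5a variant 1: ccaaaccgcacaaatcccagtgtgtattta
Kif5a variant 2: gcccaaatctcattcatagccaaccctgac
Kif5c: aaatactcaaaactggacAATAAAactgag
Klc1 variant a: gaagcggaggagccgggagagtctcaatat
Klc1 variant d: aagcctgttcataactattttttaaaaatt
Klc2: tgctgtagaAATAAAgacgatttgaatctg

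On the mm9 build, as the files place them, the Kif5a variant 1 probe lay at chr10:126662797-126662856 and the variant 2 probe at chr10:126666209-126666268, both on the minus strand. The Kif5c probe lay at chr2:49630228-49630287 on the plus strand. The Klc1 probes were at chr12:113027568-113027627 for variant a and chr12:113044907-113044966 for variant d, on the plus strand. The Klc2 probe was at chr19:5107748-5107807 on the minus strand. The Kif5b probes were at chr18:6202515-6202574 (A_66_P116311, RefSeq transcript NM_008448) and chr18:6241599-6241658 (A_55_P2032649, Ensembl transcript ENSMUST00000170959), on the minus strand. Exons and untranslated regions of mm9 were not analysed here.

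Between 55.7% and 70.5% of probes per array were well above background, no spot was saturated, and 37889 probes (68.17%) were bright enough to test, 7 of the 8 kinesin-1 probes among them. Replicate arrays correlated across probes with r of 0.981 in R141C at day 6, 0.993 in wild type at day 6, 0.985 in R141C at day 0 and 0.982 in wild type at day 0. The second R141C array at day 6 was closer to both wild-type day 6 arrays (0.987 and 0.988) than to the other R141C array, and the first wild-type array at day 0 correlated better with both R141C day 0 arrays (0.991 and 0.986) than with its replicate. Nkx2-5 had log2 signals of 1.53 and 1.58 in R141C at day 6 and 1.93 and 1.79 in wild type at day 6. At day 0 it had 1.84 and -0.77 in R141C and -1.27 and -2.02 in wild type. Its probe does not show the point mutation. All log2 signals are relative to the 75th percentile of the same array.

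Of the 2 Kif5b probes, 1 was lower in R141C at both days and the other was not well above background on any of the 8 arrays. The bright probe, A_66_P116311, had log2 signals of -2.0 and -2.18 in R141C at day 6, against -0.32 and -0.07 in wild type at day 6. At day 0 the log2 signals were -2.28 and -2.39 in R141C, against 0.28 and 0.57 in wild type. All 4 R141C arrays were thus below all 4 wild-type arrays, and the probe was well above background on all 8. Of all tested probes, 3.14% were lower in R141C without overlap at both days. As processed signal, an intensity before scaling between arrays, the same probe had 235 and 275 in R141C and 1088 and 1334 in wild type at day 6. At day 0 it had 267 and 314 in R141C and 2008 and 2735 in wild type.

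The difference of the means was -1.89 log2 units at day 6 (3.70-fold lower in R141C) and -2.76 at day 0 (6.79-fold lower). The closest arrays of the genotypes were 1.67 log2 units apart at day 6 and 2.57 at day 0. The genotype difference was therefore 0.87 log2 units smaller in size at day 6 than at day 0, a value given with no test. Without each array in turn, it ranged from -2.01 to -1.77 at day 6 and from -2.90 to -2.62 at day 0. In these bulk cultures, fewer cells that express a gene and less of its RNA per cell cannot be told apart.

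Among all 37889 tested probes, 318 (0.839%) were as low or lower in R141C at day 6, and 17 (0.0449%) were at day 0. At both days this held for 4 probes including Kif5b, of which 2 were bright on all 8 arrays. The other of these 2 measured Syt10, a synaptotagmin, a family of calcium-binding membrane proteins, with differences of -6.38 at day 6 and -2.87 at day 0. These ranks restate how Kif5b was found.

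The dim Kif5b probe, A_55_P2032649, begins at base 225 of another annotated Kif5b transcript. Its processed signals were 15.1 and 13.1 in R141C at day 6, 8.40 and 24.6 in wild type at day 6, 15.5 and 19.1 in R141C at day 0, and 20.2 and 22.7 in wild type at day 0. None of the 8 was well above background, so it gave no fold, and whether that transcript differs between the genotypes was not detectable. The genotype difference of Kif5b thus rests on 1 probe.

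**Figure D1:**
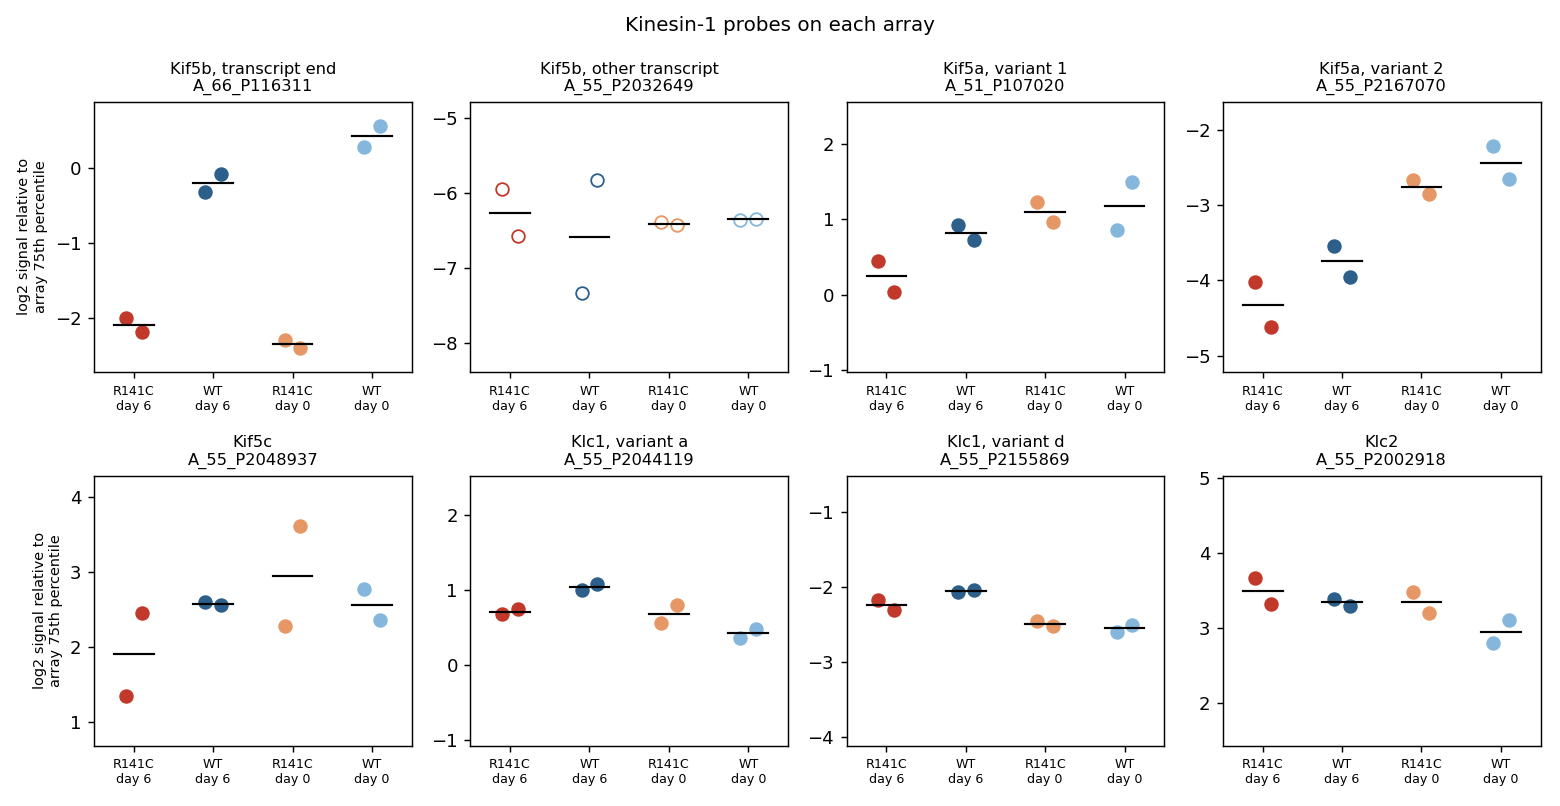
Log2 signal of each kinesin-1 probe on each array, relative to the array's 75th percentile, with R141C left of wild type and day 6 left of day 0. Points are arrays, open where not well above background, bars are group means, and every panel spans the same height. The Kif5b probe A_66_P116311 is the panel in which both R141C groups sit far below both wild-type groups.

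Probes close to the Kif5b locus were examined next. Within 500 kb, 41 other probes had a value and 30 were tested. None of the 30 passed limma's test between the genotypes with Benjamini-Hochberg adjustment over all 37889 tested probes. The smallest limma adjusted p was 0.279 at day 6 and 0.84 at day 0. Beyond the Kif5b probe, on the side of the transcript's end, lay 15 tested probes for unnamed intervals, 8 on Kif5b's own strand and 7 on the opposite one, at 0.4 to 1.6 kb. Of these, 6 were dim on some array, so that R141C groups could be at background, and only the 9 that were well above background on all 8 arrays are counted. In 7 of the 9 the R141C arrays were lower than wild type without overlap at both days, 6 of 7 on Kif5b's strand and 1 of 2 on the opposite strand. Among all probes well above background on all 8 arrays, 3.1% were. Some of the 9 overlap in sequence, and they share arrays, so they are not independent of each other.

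The sizes were smaller than that of Kif5b. Medians of the 9 were -0.29 at day 6 (range -1.27 to 0.31) and -0.41 at day 0 (range -1.13 to 0.23), beside medians over all tested probes of 0.07 and 0.00. Probe A_30_P01032370, 1.4 kb away on Kif5b's strand, had log2 signals of 3.677 and 3.725 in R141C at day 6 and 3.726 and 4.053 in wild type at day 6. On that day it was nearly equal on the closest arrays of the genotypes, though counted as not overlapping. At day 0 it had 3.78 and 3.63 in R141C and 3.91 and 3.99 in wild type. Its differences were -0.19 and -0.24, small beside those of Kif5b. Probe A_30_P01025988, 1.6 kb away on the same strand, had -4.95 and -4.54 in R141C and -3.37 and -3.59 in wild type at day 6. Its day 0 signals were -3.53 and -3.42 in R141C and -2.91 and -2.47 in wild type, and the differences were -1.27 and -0.79. Probe A_30_P01021098, 0.8 kb away on the opposite strand, was higher in R141C without overlap at both days, by 0.31 and 0.23. Its closest arrays of the genotypes were nearly equal at day 6. The 9 probes near Kif5b thus ran from somewhat higher to over 1 log2 unit lower in R141C. Whether any of them measures the Kif5b transcript was not analysed here.

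Farther out, the named genes did not share the Kif5b pattern, with 1 exception. Arhgap12, a GTPase-activating protein gene, differed by 0.01 at day 6 and -0.03 at day 0. Epc1, a subunit of a histone acetyltransferase complex, was measured by 3 probes, with differences of -0.20, -0.21 and -0.15 at day 6 and -0.27, -0.03 and 0.27 at day 0. Zeb1, a zinc-finger repressor that acts in epithelial-mesenchymal transition, had log2 signals of 0.60 and 1.30 in R141C and 1.53 and 1.66 in wild type at day 6. Its day 0 values were -1.25 and -0.55 in R141C and -0.50 and 0.74 in wild type, so it was lower in R141C without overlap at both days (-0.65 and -1.02). The transcripts EU234049 and S74315 had differences of 0.32 and 0.32 at day 6 and -0.86 and 0.22 at day 0. Beyond 2 kb, 2 of the 13 tested probes well above background on all 8 arrays were lower without overlap at both days, beside 3.1% of all probes that bright. Medians of the 13 were 0.20 at day 6 and -0.03 at day 0.

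**Figure D2:**
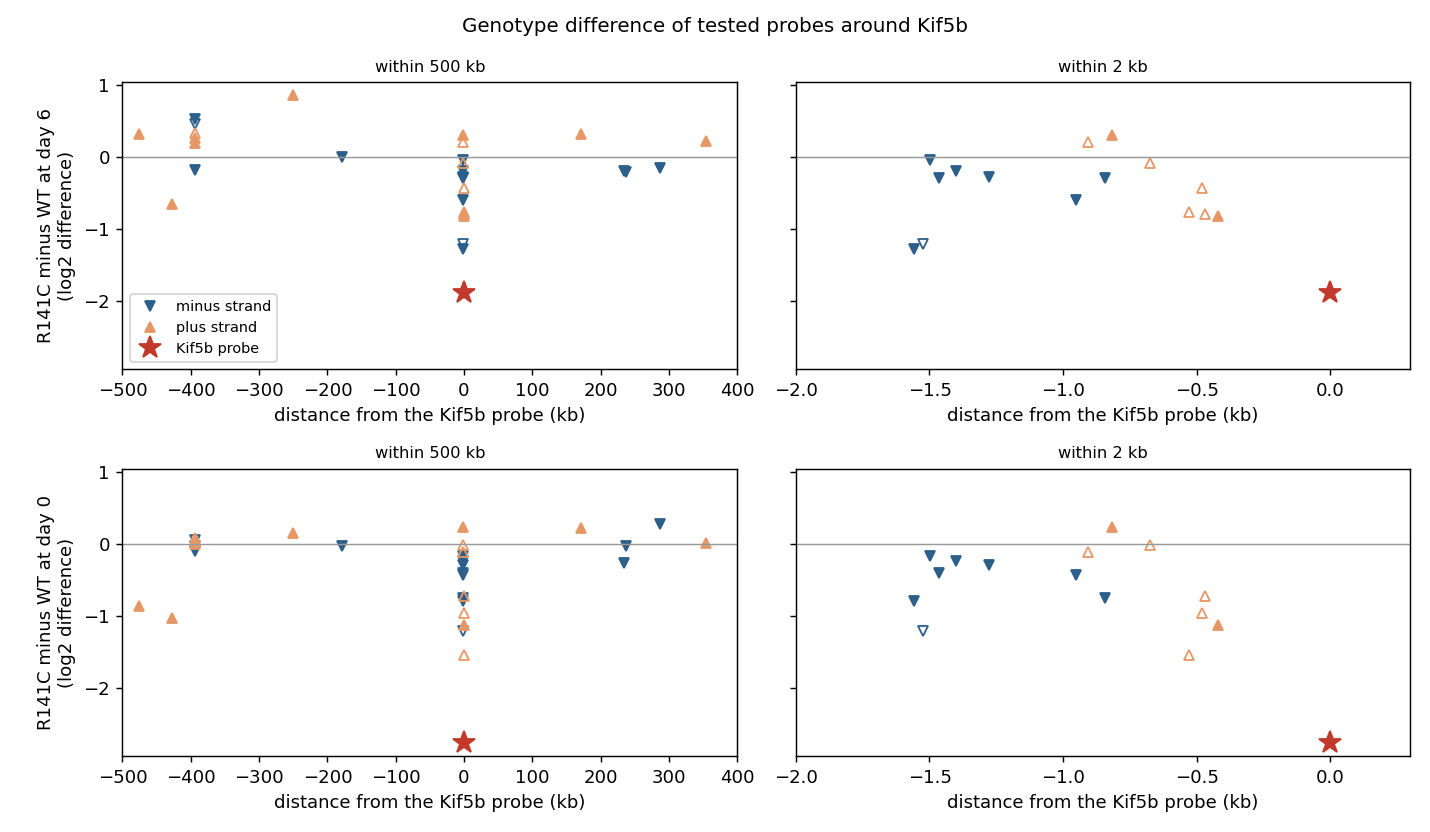
Log2 difference of R141C minus wild type at day 6 (top) and day 0 (bottom) for tested probes around the Kif5b probe A_66_P116311 (star), against distance in kb. Negative distances lie beyond that probe on the side of the transcript's end, and whether they lie inside the Kif5b transcript was not analysed. Triangles show each probe's strand, open where the probe was dim on some array, and the right panels enlarge the nearest 2 kb. The filled triangles nearest to Kif5b reach -1.27 at day 6 and -1.13 at day 0, while the star is at -1.89 and -2.76.

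The other heavy and light chains were tested between the genotypes. None of the 6 tested probes of Kif5a, Kif5c, Klc1 and Klc2 passed limma's test with Benjamini-Hochberg adjustment over all 37889 probes at either day, and none had an unadjusted p under 0.05. At day 6, 0.037% of all probes passed (14, with 3395 at an unadjusted p under 0.05), and at day 0 0% passed (0, with 1690). At day 6, 5 of the 6 differences were negative, and at day 0, 2 of 6. Over all tested probes, 58.2% were positive at day 6 and 49.7% at day 0. The 6 probes share arrays and include pairs from the same gene, so their signs are not independent.

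Kif5a variant 1, the neuronal heavy chain, had log2 signals of 0.45 and 0.04 in R141C at day 6 and 0.93 and 0.72 in wild type at day 6, which do not overlap, as in 44.1% of all tested probes. At day 0 it had 1.24 and 0.96 in R141C and 0.86 and 1.5 in wild type, which do. The differences were -0.58 ± 0.29 (SE, limma adjusted p = 0.622) and -0.08 ± 0.29 (limma adjusted p = 0.9998). This probe was printed 10 times on each array, and the SD of its 10 log2 signals was 0.048 to 0.095, well under the spread between replicate arrays.

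Kif5a variant 2 had log2 signals of -4.02 and -4.63 in R141C at day 6 and -3.53 and -3.95 in wild type at day 6. At day 0 it had -2.66 and -2.85 in R141C and -2.21 and -2.65 in wild type. R141C was lower without overlap at both days, but by -0.58 ± 0.30 (limma adjusted p = 0.637) and -0.32 ± 0.30 (limma adjusted p = 0.9998). At day 0 the closest arrays of the genotypes were nearly equal, at -2.66 and -2.65. Of all tested probes, 3.14% had R141C lower without overlap at both days. At day 6 alone 16.4% did, and at day 0 14.5%, where 29% did not overlap in either direction.

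Kif5c, the remaining heavy chain, varied most between replicates. Its log2 signals were 1.35 and 2.45 in R141C at day 6, 2.60 and 2.55 in wild type at day 6, 2.28 and 3.61 in R141C at day 0, and 2.77 and 2.36 in wild type at day 0. The R141C replicates were over 1 log2 unit apart at each day. The genotype differences were -0.68 (95% confidence interval -1.90 to 0.55) at day 6 and 0.38 (-0.84 to 1.61) at day 0. These intervals are wide, and without the second R141C array at day 0 the day 0 difference turned to -0.29.

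The light chains stayed within narrower limits. Klc1 variant a had log2 signals of 0.67 and 0.74 in R141C at day 6, 1.0 and 1.08 in wild type at day 6, 0.56 and 0.80 in R141C at day 0, and 0.37 and 0.48 in wild type at day 0. R141C was thus the lower genotype at day 6 and the higher at day 0, without overlap each time, by -0.34 (-0.80 to 0.13) and 0.26 (-0.21 to 0.72). Of all tested probes, 44.1% did not overlap in either direction at day 6 and 29% at day 0. Klc1 variant d had -2.18 and -2.31 in R141C at day 6, -2.07 and -2.04 in wild type at day 6, -2.45 and -2.52 in R141C at day 0, and -2.59 and -2.50 in wild type at day 0. Its differences were -0.19 (-0.63 to 0.26) and 0.06 (-0.38 to 0.50).

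Klc2, the other light chain among the members, had log2 signals of 3.66 and 3.31 in R141C at day 6, 3.39 and 3.29 in wild type at day 6, 3.48 and 3.19 in R141C at day 0, and 2.80 and 3.10 in wild type at day 0. Its differences were 0.15 (-0.41 to 0.70) and 0.39 (-0.17 to 0.94). The ends of the 6 light-chain intervals ran from -0.80 to 0.94. Whether the genotype difference itself differed between the days was also tested: 0 of the 6 relatives passed, with 0% of all probes passing (0, with 2138 at an unadjusted p under 0.05). All 6 of these values were negative, with limma adjusted p of 0.885 to 0.947 and no unadjusted p under 0.05. Over all tested probes, 58.5% of such values were positive.

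**Figure D3:**
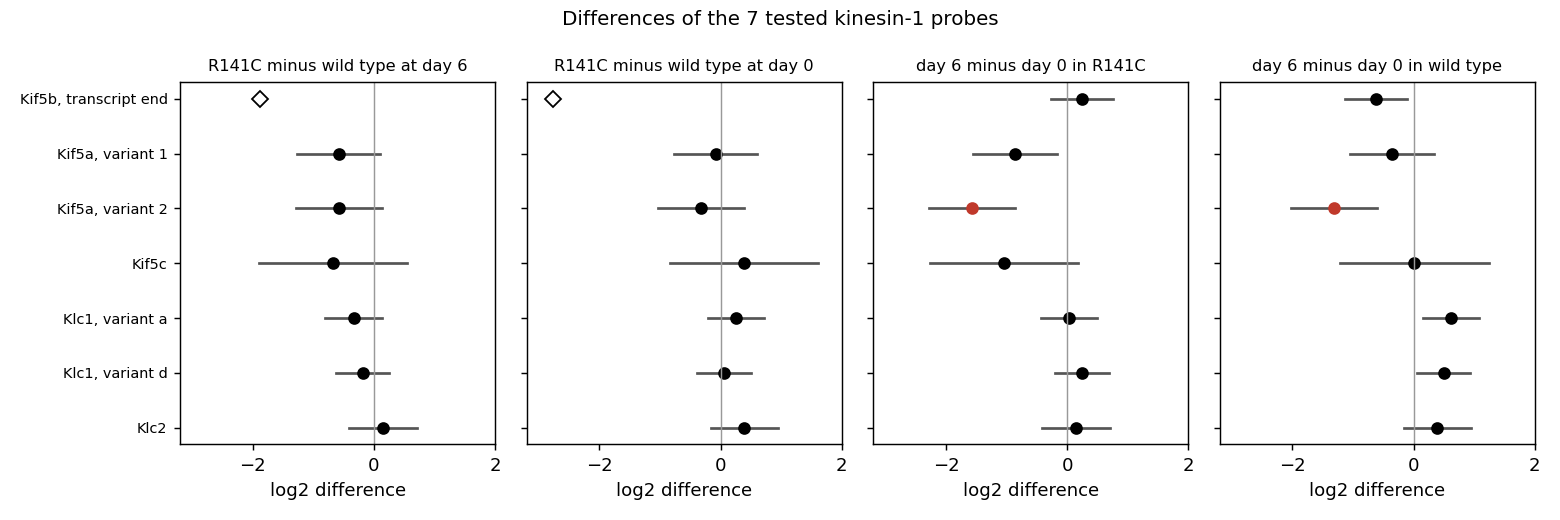
Log2 differences of the 7 tested kinesin-1 probes with 95% confidence intervals from limma, for R141C minus wild type at day 6 and at day 0 and for day 6 minus day 0 in R141C and in wild type. Open diamonds are Kif5b values given with no test or interval, at -1.89 and -2.76, and red points passed the adjusted threshold, which holds for Kif5a variant 2 in both genotypes.

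Day 6 was then compared with day 0 within each genotype. Only the Kif5a variant 2 probe passed, in both genotypes, 1 of 7 kinesin-1 probes each time. Over all probes, 15% passed in R141C (8.13% lower and 6.84% higher at day 6) and 23.3% in wild type (13.3% lower and 10% higher). The probe fell by 1.57 log2 units in R141C (2.96-fold lower at day 6, SE 0.30, limma adjusted p = 0.0178) and by 1.31 in wild type (2.48-fold lower, SE 0.30, limma adjusted p = 0.0225). In both genotypes all day 6 arrays lay below all day 0 arrays. The call in R141C was lost without either R141C day 0 array (limma adjusted p = 0.093 and 0.0596) or without the second at day 6 (0.0605), and with normexp background correction the difference was -0.78 (0.0829). The call in wild type was lost without the first wild-type array at day 0 (0.105) or either at day 6 (0.0621 and 0.14).

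The variant 1 probe of Kif5a did not pass. Its day 6 minus day 0 difference was -0.86 ± 0.29 in R141C (SE, limma adjusted p = 0.0971) and -0.35 ± 0.29 in wild type (limma adjusted p = 0.421). The variant 1 log2 signal minus that of variant 2 was 4.57 ± 0.12 at day 6 and 3.73 ± 0.47 at day 0 (SD, n = 4 arrays each, both genotypes together). It was larger on every day 6 array than on any day 0 array, by 0.83 on average, a value chosen after the data had been seen and given with no test. It depended on the background correction: with normexp the day 6 minus day 0 difference in R141C was -0.83 for variant 1 and -0.78 for variant 2, and in wild type -0.33 and -0.95.

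Neuron markers moved in the same direction as Kif5a. Of 12 tested markers out of 13, 8 fell in R141C and 8 in wild type, beside 8.13% and 13.3% of all probes. Medians of the 12 were -2.17 and -1.39. Nefl, a neurofilament subunit, fell by 3.59 log2 units in R141C (limma adjusted p = 0.00562) and by 2.08 in wild type (0.0242). Elavl3, a neuronal RNA-binding protein, fell by 3.39 in R141C (0.003) and by 2.39 in wild type (0.00647). The summed signal of the 12 markers, in units of the array's 75th percentile, was 14.2 to 18.4 in R141C at day 6, 24.5 on both wild-type arrays at day 6, 78.5 to 97.9 in R141C at day 0 and 60.3 to 89.9 in wild type at day 0. No tested marker was at background on any array. The part of neuron-marker RNA in the Kif5a values was not tested. The count of 8 in wild type was 2 to 3 without the first wild-type day 0 array or either wild-type day 6 array.

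**Figure D4:**
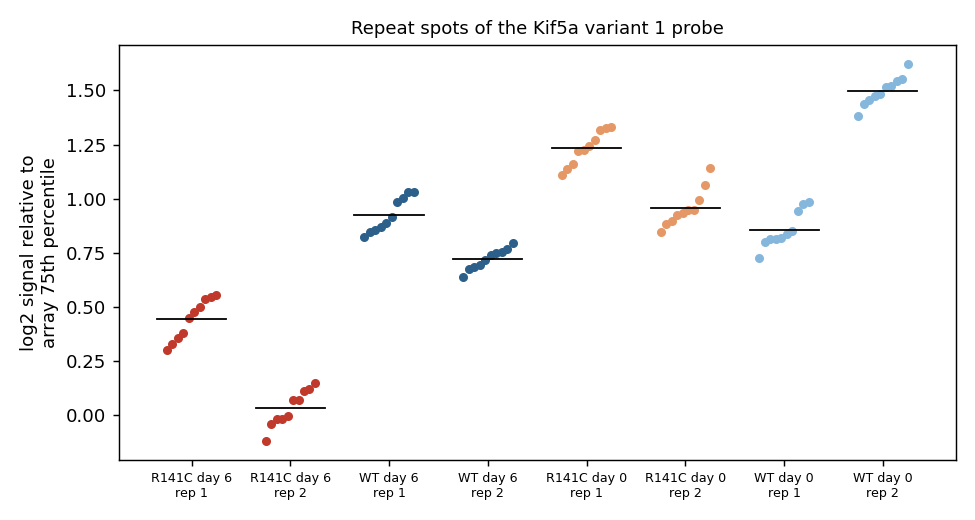
Log2 signal of the 10 repeat spots of the Kif5a variant 1 probe on each array, relative to the array's 75th percentile, sorted within the array, with bars at the array means. The spread among spots (SD 0.048 to 0.095) is smaller than the distance between the replicate arrays of each group.

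The bright Kif5b probe did not pass between the days. Day 6 minus day 0 was 0.25 ± 0.22 in R141C (SE, limma adjusted p = 0.477) and -0.62 ± 0.22 in wild type (limma adjusted p = 0.0812). Both differences use the same arrays by which Kif5b was chosen, so their p-values are not independent of that choice. The day 6 arrays lay above the day 0 arrays in R141C and below them in wild type, without overlap, as did 55.7% of all probes in R141C and 70.9% in wild type in either direction. Kif5c had -1.04 ± 0.52 in R141C (limma adjusted p = 0.229, range -1.71 to -0.38 without each array in turn) and 0.01 ± 0.52 in wild type (limma adjusted p = 0.988).

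All 3 light-chain probes had positive day 6 minus day 0 differences in both genotypes, none of them past the threshold. Klc1 variant a had 0.03 (limma adjusted p = 0.939) in R141C and 0.62 (0.0632) in wild type. With quantile normalization or the authors' deposited matrix the wild-type value passed (0.0432 and 0.0445), and in R141C the sign turned without 1 of 2 R141C arrays. Klc1 variant d had 0.25 (0.424) in R141C and 0.49 (0.102) in wild type, and Klc2 had 0.15 (0.711) and 0.39 (0.273). Klc2 in R141C turned to -0.02 without the first R141C array at day 6.

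Other kinesin-1 genes came from lists of related genes, each gene taken by its brightest probe. Of the light chains outside the members, Klc3 was higher at day 6 in both genotypes. Its log2 signals were 2.84 to 3.04 in R141C at day 6, against 1.51 to 2.06 in R141C at day 0, a difference of 1.16 (limma adjusted p = 0.0288). In wild type they were 2.64 to 2.86 at day 6, against 1.28 to 1.56 at day 0, a difference of 1.33 (limma adjusted p = 0.0132). The R141C call was lost without the first R141C array at day 0 or any 1 of the 4 day 6 arrays, and the wild-type call without the second wild-type array at day 0 or either at day 6. Klc4, also a light chain, differed between the days by 0.05 in R141C and 0.16 in wild type and did not pass.

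The cargo adaptors and organelle linkers of kinesin-1 connect it to mitochondria, lysosomes, signalling scaffolds and the microtubule itself. Of 23 tested, 1 rose and 5 fell between day 0 and day 6 in R141C, and 4 rose and 5 fell in wild type, beside 15% and 23.3% called over all probes. The list's medians were -0.03 and -0.29, and those of all probes -0.05 and -0.15. The largest falls included members of the MAP7 family, which recruits kinesin-1 to microtubules. Map7 fell by 1.76 log2 units in R141C (limma adjusted p = 0.0379) and by 1.96 in wild type (0.0194). Map7d2 fell by 1.25 in R141C (0.044) and by 1.67 in wild type (0.0125). Map7d3, of the same family, also fell and passed in both genotypes. The family did not move as a whole, since Map7d1 rose by 1.109 in wild type (0.0191) and by 0.585 in R141C (0.158, not passing). Fez1, which binds the heavy-chain tail, was not well above background on either R141C array at day 6 and was at least 2.82-fold lower there than in R141C at day 0 (limma adjusted p = 0.0175). In wild type Fez1 fell by 3.05 log2 units (0.0229), with 1 of 2 arrays well above background at day 6. Spag9, a JNK-pathway scaffold that binds light chains, rose by 1.47 in wild type (0.026) and by 0.345 in R141C (0.552, not passing). A lower bound sets the bright group's mean against, on each dim array, the higher of the lowest signal among bright probes and the probe's own signal.

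Those counts leaned on single arrays. The 6 calls in R141C became 0 to 3 without any 1 R141C array and 1 without either wild-type day 6 array. The 9 in wild type became 3 without the second wild-type day 0 array, 2 without the first at day 6 and 0 without the second.

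Among the other kinesin motors, 4 of 37 tested rose and 1 fell in R141C, and 7 rose and 5 fell in wild type, beside 15% and 23.3% called in either direction over all probes. Kif12, a motor known from kidney and liver epithelia, was not well above background on any day 0 array, and was at least 28.2-fold higher at day 6 in R141C (limma adjusted p = 0.000657) and at least 47-fold higher in wild type (0.000351). Kif26b, a motor that acts in adhesion of kidney progenitor cells, had 0.36 to 0.39 in R141C at day 6, against -4.18 to -3.30 at day 0. In wild type it had 0.37 to 0.61 at day 6, against -4.50 to -3.75 at day 0. Its rises were 4.11 (0.0016) and 4.61 log2 units (0.000672). Kif21b, which regulates microtubule growth, rose by 3.09 in R141C (0.00401) and 2.23 in wild type (0.00813). Kif6 rose by 3.13 (0.00347) and 1.90 (0.0127), with 1 of 2 R141C arrays at day 0 well above background. The 12 calls in wild type became 2 to 5 without any 1 wild-type array.

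Dynein-1 and its activator dynactin carry cargo the opposite way. Of 23 tested genes, 1 rose and 1 fell in R141C, and 4 rose and 2 fell in wild type, beside the same 15% and 23.3%. Dynlrb2, a dynein light chain, rose by 2.35 log2 units in R141C (limma adjusted p = 0.0166) and 3.16 in wild type (0.00415). Dync1i1, an intermediate chain of dynein-1, fell by 1.81 in wild type (0.0259) and by 1.55 in R141C (0.0562, not passing). Bicd1, a dynein adaptor, fell by 1.04 in R141C (0.0314) and by 0.82 in wild type (0.0492). Dynlt3, another light chain, rose by 1.23 in wild type (0.0385) and by 1.03 in R141C (0.0849, not passing). Dctn4, a dynactin subunit, rose by 1.01 in wild type (0.0323) and by 0.84 in R141C (0.0739, not passing). Without any 1 array of either genotype except those of R141C at day 6, the 6 wild-type calls became 1 to 3. The 2 in R141C became 0 or 1 without any 1 day 6 array or the first R141C array at day 0.

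Between the genotypes, 0 genes of these lists passed limma's adjusted threshold at either day. At an unadjusted p under 0.05 were 3 of 23 adaptors, 1 of 37 other kinesins and 0 of 23 dynein and dynactin genes at day 6, and 1, 1 and 0 at day 0. Median differences of R141C minus wild type were -0.03 for the adaptors, -0.03 for the other kinesins and -0.09 for dynein and dynactin at day 6. At day 0 they were -0.08, -0.08 and 0.06. The lowest of the 37 other kinesins was at -0.58 at day 6 and -1.26 at day 0, both nearer to 0 than Kif5b. Like the ranks above, this comparison restates how Kif5b was found. Map7d1, the brightest adaptor, had 0.07 (limma adjusted p = 0.949) at day 6 and 0.59 at day 0. Kif22, the brightest other kinesin and a chromosome-binding motor, had 0.23 (limma adjusted p = 0.813) and -0.26.

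Markers of cell state were also compared between the genotypes. All 12 cardiac markers had negative differences at day 6, with a median of -3.31, but 0 passed (9 at an unadjusted p under 0.05). Without the second R141C array at day 6, 5 did. Of 12 neuron and 12 pluripotency markers 0 passed as well, with medians of -0.43 and 0.27 at day 6, 4 and 1 of them at an unadjusted p under 0.05. Of all 37889 tested probes, 3395 were at an unadjusted p under 0.05 at day 6. Between the days, 4 of 12 cardiac markers rose in R141C and 9 in wild type, beside 6.84% and 10% of all probes. Of 12 pluripotency markers, 10 fell in R141C and 11 in wild type, beside 8.13% and 13.3% of all probes. These 4 counts also moved without single arrays, to 3 to 7 and 4 to 11 for cardiac markers and to 6 to 11 and 8 to 11 for pluripotency markers. The summed cardiac signal was 16.6 to 115.5 in R141C at day 6, 269.2 to 338.5 in wild type at day 6, 15.4 to 37.5 in R141C at day 0 and 5.56 to 15.5 in wild type at day 0. Pluripotency markers summed to 98.4 to 123.4 in R141C at day 6, 72.4 to 83.9 in wild type at day 6, 409 to 539 in R141C at day 0 and 521.4 to 656.4 in wild type at day 0. At day 0 the ranges of both sums overlapped between the genotypes, narrowly for cardiac markers. By gene, 11 of 12 cardiac markers were higher in R141C at day 0 (median 0.58) and 10 of 12 pluripotency markers lower (median -0.595). Of 12 neuron markers 8 were higher (median 0.15), beside 49.7% of all tested probes. In these 3 lists 0 passed at day 0, with 1, 3 and 2 at an unadjusted p under 0.05, beside 1690 of all 37889 probes. The part of cell state in the Kif5b values was not tested.

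**Figure D5:**
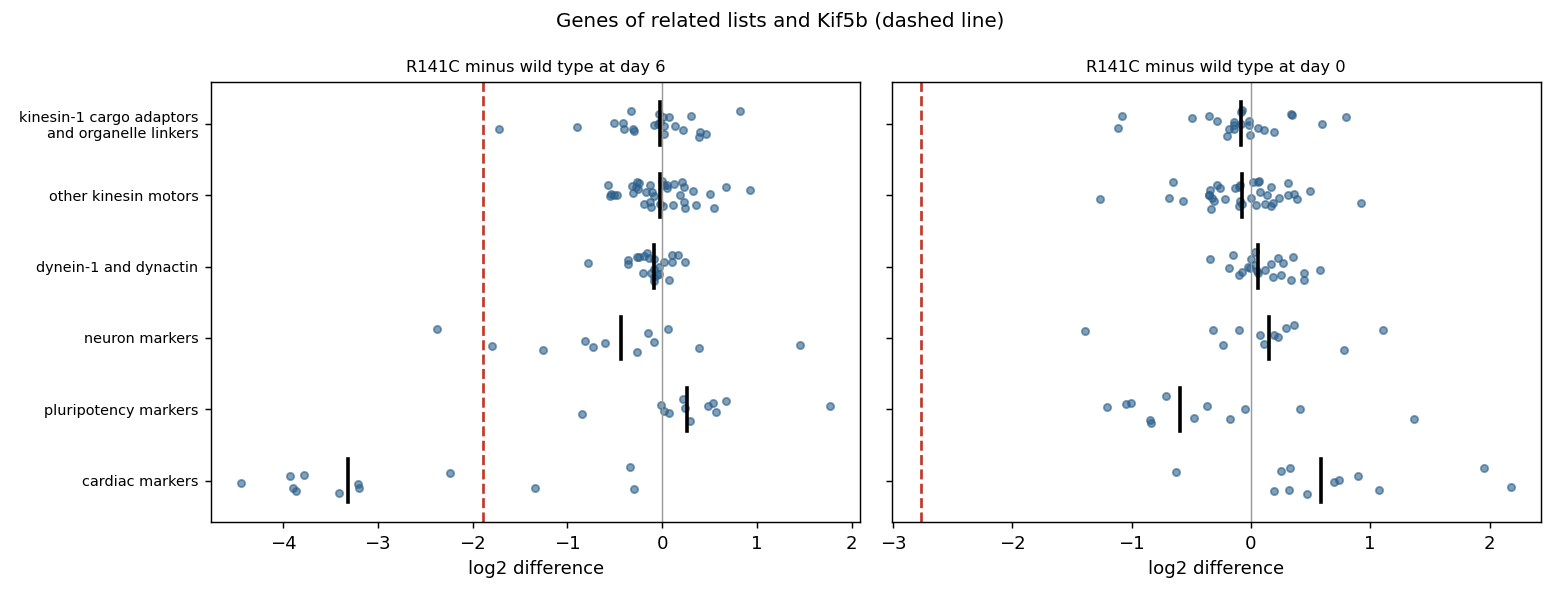
Log2 difference of R141C minus wild type at day 6 (left) and day 0 (right) for the tested genes of 6 lists, 1 point per gene by its brightest probe, with bars at the list medians. The dashed line is Kif5b, which was chosen by these differences, at -1.89 and -2.76. At day 0 no listed gene lies as low as Kif5b, while at day 6 most cardiac markers lie lower.

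The genes whose signal over the 8 arrays ran most like that of Kif5b were ranked among 15073 genes bright on all arrays. The highest Pearson correlations were 0.901 for B4galnt4, 0.900 for Aoc2, 0.891 for Tgif2lx1, 0.891 for Ttc39c and 0.885 for Nudt2, over 8 arrays that share 1 slide and fall into 4 groups. Their ranges over the arrays were 0.41 to 1.99 log2 units, against 2.96 for Kif5b. Ttc39c, the widest of the 5, had -1.64 and -1.56 in R141C at day 6 and -0.55 and -0.86 in wild type at day 6. At day 0 it had -2.31 and -1.95 in R141C and -1.14 and -0.32 in wild type. B4galnt4, a glycosyltransferase, was lower in R141C by 0.47 at day 6 and 0.91 at day 0. These 5 are a description of likeness among many genes and carry no test.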

How the data were processed

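RNA of 8 cultures was measured on 1-colour Agilent arrays. Per the file headers, scanner files came from Feature Extraction 11.5.1.1, while the submitters' processing notes give 10.5.1.1. The deposited processed signal is an intensity with background already subtracted, not scaled between arrays. The deposited mean signal and local background are uncorrected intensity values, used for normexp only. The flags deposited by the authors (other) are 0 or 1 per spot. The authors' deposited matrix holds log2 values, for 36321 of the probes used, with column medians of 8.99 to 9.04. Its columns correlated with log2 of the processed signal at r of 0.9995 to 0.9999. Its normalization and filter are not given in the sources used here.

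Control spots, spots marked as outliers (131 to 251 of 62976 on each array) and 98 probes lacking a value on some array were removed. Spots of a probe were averaged, and each array's 75th percentile, 936 to 1848 before scaling, was set to 0 on the log2 scale. The number of arrays limits the precision. A probe entered the test if the scanner flagged it as well above background on both replicates of 1 or more groups. limma 3.58.1 in R 4.3.3 fitted 4 group means to all 8 arrays (4 residual, 2.81 prior degrees of freedom), with Benjamini-Hochberg adjustment over 37889 probes and a threshold of 0.05, two-sided. P-values measure the spread between these replicates. The fit was tested on simulated data. Names came from the files, updated for 2030 probes through current mouse names (GRCm38.p6), whose coordinates were not used. Other software was version 1.17.8 of data.table, statmod 1.5.0, Python 3.11.15, pandas 2.3.3 and matplotlib 3.10.9.

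The members and gene lists were chosen with earlier results of these data known. Named were all member probes, named genes within 500 kb of Kif5b, and the 5 genes most correlated with it. For each list and comparison the rule took the passing genes of largest change, at most 4, or the brightest where none passed. Syt10, the interval probes and genes at a list's extreme were chosen after their values were seen. The results were recomputed with normexp (offset 50), quantile or median scaling, the deposited matrix, other filters on dim probes, the compared arrays alone, trend and robust settings, 1 probe per gene, the replicate number as a block, and without each array in turn.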

Additional observations from a re-analysis of the deposited data

How the results depend on the processing

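The Kif5b difference was lower in R141C under every alternative run, with values of -1.65 at day 6 and -2.50 at day 0 under normexp, and, leaving out each array in turn, -2.01 to -1.77 at day 6 and -2.90 to -2.62 at day 0. No alternative called a Kif5a, Kif5c, Klc1 or Klc2 probe between the genotypes or for the difference between the days (0 to 0 without each array). The 1 kinesin-1 probe that passed between the days in wild type became 2 with quantile normalization, normexp or the deposited matrix, and 0 with 1 probe per gene, since the variant 2 probe of Kif5a was then not used. In R141C it became 0 with normexp and 0 with 1 probe per gene. Without each array in turn, the counts were 0 to 1 in both genotypes. Under normexp, Kif5b passed in wild type between the days at -0.66 (limma adjusted p = 0.0493), on arrays that also served to choose it.

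Differences near 0 turned sign. Under normexp, Klc1 variant a in R141C between the days was -0.001, and the difference of genotype effects for Kif5a variant 2 was 0.18. Without each array in turn, Kif5a variant 1 between the genotypes at day 0 ran from -0.40 to 0.24, Kif5c there from -0.29 to 1.05 and Klc2 at day 6 from -0.024 to 0.319. Between the days, Kif5c in wild type ran from -0.19 to 0.22, and in R141C Klc1 variant a from -0.093 to 0.151 and Klc2 from -0.024 to 0.320. The difference of genotype effects for Kif5a variant 2 ran from -0.559 to 0.047. The causes were not tested.

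Over all probes, the 14 calls between the genotypes at day 6 ranged from 0 to 387 without each array (387 without the second R141C array at day 6) and from 0 to 17 under the other settings. Same-numbered replicates did not deviate together at every pair of groups (correlations from -0.128 to 0.334), so the numbers were not taken as pairs. With the replicate block, Kif5a variant 2 was called in both genotypes (-1.57 in R141C, limma adjusted p = 0.00904, and -1.31 in wild type, 0.01), Kif5b stayed at -1.89 and -2.76, and 0 relatives were called between the genotypes. A crossed pairing at day 0, chosen after seeing the data, gave the same counts of 1 and 1 kinesin-1 probes between the days. Signal over background limits the second Kif5b probe, which was too dim on all 8 arrays. Of the lists between the days in R141C, the 6 adaptor calls became 3 with a median shift and 2 with no filter or only the arrays compared, and the Klc3 call was lost under the last 2 settings.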
